A study of Homo sapiens with 2 samples.

Results

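The 10 genes described here encode the enzymes of serine synthesis and the mitochondrial folate steps fed by serine, the transcription factor ATF4, and genes known as part of the ATF4 response. They were chosen by name (PHGDH, PSAT1, PSPH, SHMT2, MTHFD2, ASNS, ATF4, DDIT3, TRIB3 and DDIT4), not by their values, and all 10 were found by Ensembl identifier among the 30796 genes measured. They were followed in MDAMB468 and CAL51, established human cell lines labelled as triple negative breast cancer, a breast cancer class defined by the lack of oestrogen receptor, progesterone receptor and HER2. The labels give no treatment, genotype or growth condition for either line. Each line was captured once by Drop-seq, in which a cell shares a droplet with a barcoded bead and each captured transcript molecule carries a unique molecular identifier (UMI), read from its 3′ end. With 1 library per line no test between the lines was possible, and a difference between the lines cannot be told apart from a difference between the libraries or cultures.

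Cells make serine from an intermediate of glycolysis in 3 steps, through PHGDH, PSAT1 and PSPH. SHMT2 and MTHFD2 then pass a carbon unit from serine to folate inside mitochondria, for nucleotide synthesis. When amino acids run short or proteins misfold in the endoplasmic reticulum (ER), kinases phosphorylate the initiation factor eIF2, ATF4 is translated, and it activates amino acid synthesis, transport and stress genes, often as a dimer with a C/EBP protein at a composite C/EBP-ATF element.

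The MDAMB468 library held 306 barcodes and 5501900 UMIs, with a median of 10016.5 UMIs per barcode. CAL51 held 1346 barcodes and 16223444 UMIs, with a median of 8635, after 31 barcodes whose sequence was also present under MDAMB468 were left out. The median mitochondrial share of UMIs was 6.04% in MDAMB468 and 4.25% in CAL51. In MDAMB468, 64 barcodes were satellites, their sequence being 1 base away from that of another barcode of the line that held 5 or more times their UMIs, against 7 in CAL51. Satellites may be copies of a cell already counted, so they stayed in the summed levels and were left out of the comparisons between cells. The line markers matched the labels: the keratins KRT7 and KRT5 had a UMI in 207 and 161 of 208 MDAMB468 barcodes brought to 5000 UMIs. In CAL51 both had a UMI in 0 of 1069, which allows a share of barcodes with a UMI at this depth of up to 0.281% (3 of the total). The 7 measured markers of blood and endothelial cells summed to 9 UMIs in MDAMB468 and 14 in CAL51.

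One short DNA element bears on these genes, and its copies are shown first because they recur beside the results. The core letters TGATGNAA of the C/EBP-ATF element were searched on both strands from 250 bases before to 50 bases after each RefSeq transcription start (GRCh38.p14). They were in 1270 of 35116 such windows, or 3.62%. A gene can have several starts, and 1217 of 27305 genes, or 4.46%, had the letters in at least 1 of their windows. Windows were available for 8 of the 10 genes, all but PSPH and SHMT2, and 1 of the 8 genes, ASNS, had the letters. Among listed genes with a window, 7 of 16 cytosolic aminoacyl-tRNA synthetases, 5 of 10 amino acid transporters, 5 of 17 other ATF4 response genes and 1 of 16 ER stress genes had them. The copies below belong to ASNS and to the listed genes outside the 10 that held the letters and, as described further on, had a correlation of at least 0.1 with the summed level of the 10 genes in CAL51. They lie at chr7:97872459-97872486 on the minus strand (ASNS), chr7:30594835-30594862 on the plus strand (GARS1), chr12:57488054-57488081 on the plus strand (MARS1) and chr11:3057408-3057435 on the minus strand (CARS1). The others lie at chr5:33440957-33440984 on the plus strand (TARS1), chr18:57621805-57621832 on the minus strand (NARS1), chr9:92293693-92293720 on the minus strand (IARS1), chr16:56931956-56931983 on the plus strand (HERPUD1), chr11:62881726-62881748 on the plus strand (SLC3A2), chr12:46266503-46266530 on the minus strand (SLC38A1) and chr19:33374061-33374088 on the plus strand (CEBPG). Each is written 5′ to 3′ on its gene's strand with 10 bases on each side (the SLC3A2 window ends sooner), and capitals mark the letters of the element, which read TTNCATCA where the match is on the opposite strand.
ASNS: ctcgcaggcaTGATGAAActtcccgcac
GARS1: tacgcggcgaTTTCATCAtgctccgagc
MARS1: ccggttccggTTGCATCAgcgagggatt
CARS1: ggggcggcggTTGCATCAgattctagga
TARS1: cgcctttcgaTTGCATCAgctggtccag
NARS1: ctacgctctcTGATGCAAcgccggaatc
IARS1: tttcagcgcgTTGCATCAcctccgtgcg
HERPUD1: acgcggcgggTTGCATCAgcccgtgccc
SLC3A2: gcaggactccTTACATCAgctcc
SLC38A1: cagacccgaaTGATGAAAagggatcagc
CEBPG: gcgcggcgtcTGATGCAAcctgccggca
In the ASNS window the element spans positions -68 to -61, counted with the first transcribed base as 0. A match is only a match of letters, and its absence from a window says nothing of ATF4 binding there or elsewhere. The 250 bases before the PSAT1 start (chr9:78296875-78297124, plus strand) are shown because PSAT1 had the highest correlation with another of the 10 genes in CAL51, and they hold no copy.
PSAT1: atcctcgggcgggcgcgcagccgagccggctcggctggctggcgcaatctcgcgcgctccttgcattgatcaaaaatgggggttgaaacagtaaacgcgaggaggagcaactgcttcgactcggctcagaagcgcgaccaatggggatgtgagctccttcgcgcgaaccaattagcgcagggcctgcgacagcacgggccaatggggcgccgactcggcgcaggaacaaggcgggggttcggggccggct

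The levels of the 10 genes in the 2 libraries were compared as CPM (counts per 1000000), the UMIs of a gene over all barcodes of a line scaled to the same total in each line. PSPH was the gene furthest apart, followed by TRIB3 and ATF4, and all 3 were higher in MDAMB468. These 3 of 10 genes were at least 2-fold apart, and 0 of 10 were at least 2-fold higher in CAL51. Of the 15347 genes with at least 20 UMIs over both lines, 41.3% were at least 2-fold apart, 18.9% being higher in MDAMB468 and 22.4% higher in CAL51. The count among the 10 is therefore not above the share over all genes. The median difference of the 10 genes, on the scale of log2(CPM + 1) with CAL51 subtracted from MDAMB468, was 0.19, beside -0.13 for all genes.

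The first enzyme, PHGDH, which oxidises 3-phosphoglycerate (ENSG00000092621, chr1:119648411-119744226 in GENCODE 29 on GRCh38), had 1287 UMIs or 234 CPM in MDAMB468 (95% interval 221 to 247). In CAL51 it had 2269 UMIs or 139.9 CPM (134 to 146). PHGDH was thus 1.67-fold higher in MDAMB468 (1.56 to 1.79). This interval, like every other given here for a level, fold or share, is exact and covers counting error only.

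PSAT1, the transaminase of the second step (ENSG00000135069, chr9:78297143-78330093), was close in the 2 lines. It had 801 UMIs or 146 CPM in MDAMB468 (136 to 156) and 2625 UMIs or 162 CPM in CAL51 (156 to 168), a ratio of MDAMB468 to CAL51 of 0.900 (0.830 to 0.974).

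PSPH, the phosphatase that releases serine (ENSG00000146733, chr7:56011051-56051604), stood apart from the other 2 enzymes. It had 1577 UMIs or 287 CPM in MDAMB468 (273 to 301) and 514 UMIs or 31.7 CPM in CAL51 (29.002 to 34.5). The level was 9.05-fold higher in MDAMB468 (8.18 to 10.01). At 5000 UMIs per barcode, 69.2% of 208 MDAMB468 barcodes had a PSPH UMI (62.5% to 75.4%), against 14.4% of 1069 CAL51 barcodes (12.4% to 16.7%). At full depth the shares were 87.2% and 27.3%, with the deeper barcodes in MDAMB468. Both shares lie above those of the other line's marker genes at the same depth. In CAL51 the MDAMB468 markers KRT7, KRT5 and AARD had a UMI in 0 of 1069 barcodes, AZGP1 in 1 and EGFR in 58. In MDAMB468 the CAL51 markers GSTP1, PDPN, VCAN, MSX1 and RB1 had a UMI in 2, 1, 1, 0 and 4 of 208 barcodes.

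**Figure D1:**
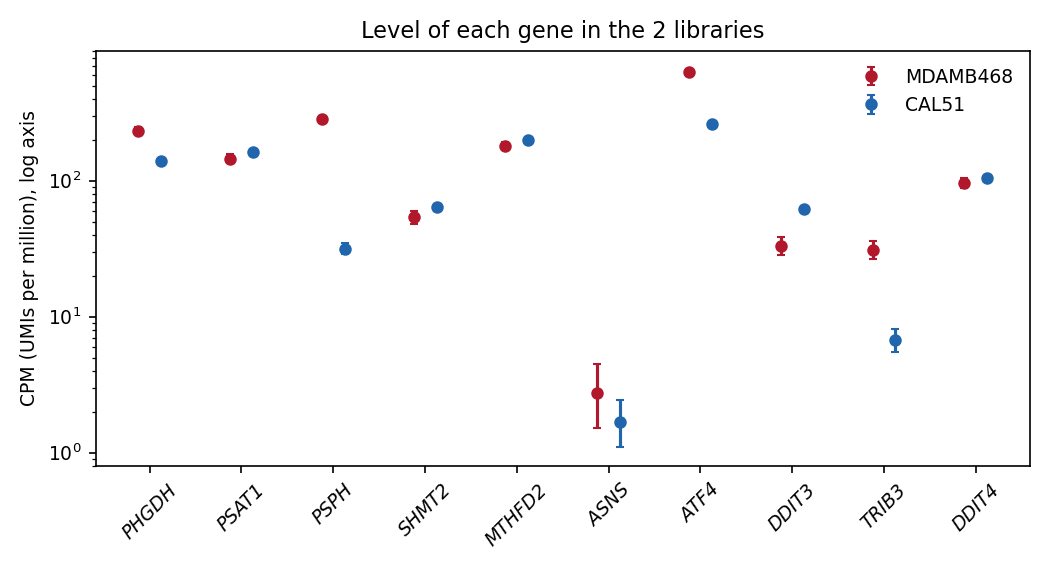
CPM of each of the 10 genes in the MDAMB468 and CAL51 libraries on a log axis, with bars for exact 95% Poisson intervals that cover counting error only. PSPH, ATF4 and TRIB3 are at least 2-fold higher in MDAMB468, and the other 7 genes lie within 2-fold.

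The genes beside PSPH were also higher in MDAMB468. Of 12 listed genes within 1275 kb of it with at least 20 UMIs, 11 were at least 2-fold higher in MDAMB468 and 1 was not (NIPSNAP2, 1.91-fold), with a median log2 difference of 2.04. Over all genes 18.9% were at least 2-fold higher in MDAMB468. EGFR, the receptor for epidermal growth factor, whose start-to-end midpoint lies 916 kb from that of PSPH, was 38.0-fold higher in MDAMB468 (2524 against 196 UMIs). LANCL2 was 18.0-fold higher, SEC61G 15.7-fold and VOPP1 2.90-fold. Closer to PSPH, ZNF713 was 10.1-fold higher and MRPS17 4.76-fold. On its other side CCT6A was 3.58-fold higher, SUMF2 2.47-fold, PHKG1 3.27-fold and CHCHD2 3.59-fold, and NUPR2 had 22 UMIs in MDAMB468 and 0 in CAL51. Whether the copy number of the region differs between the lines was not tested. Around PHGDH the 7 listed neighbours with at least 20 UMIs, of 11 in the files, showed no such common direction. GDAP2 was 2.55-fold higher in MDAMB468 and WDR3 1.48-fold, while MAN1A2 and WARS2 were at 0.657 and 0.535 of their CAL51 level. TBX15 had 1 UMI in MDAMB468 and 30 in CAL51. The nearest genes with at least 20 UMIs on each side of PHGDH, ZNF697 and NOTCH2, had ratios of 1.60 (0.747 to 3.26) and 0.721 (0.480 to 1.06), intervals that include equal levels.

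**Figure D2:**
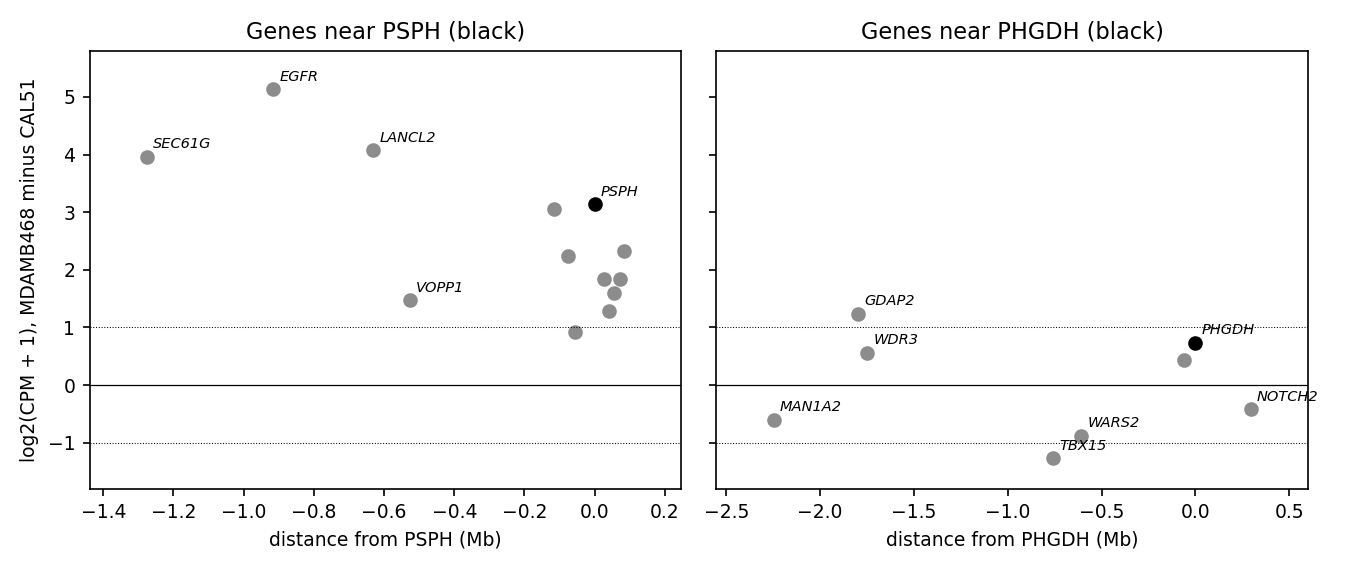
Difference between the lines, log2(CPM + 1) of MDAMB468 minus CAL51, for genes around PSPH (left) and PHGDH (right) with at least 20 UMIs over both lines, against the distance of gene midpoints in Mb. All points of the left panel lie above 0, and the points of the right panel lie on both sides; the dotted lines mark 1 and -1, near a 2-fold difference, and the unlabelled point left of PHGDH is ZNF697.

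The enzymes that take serine onward differed little. SHMT2, which moves a carbon from serine to folate (ENSG00000182199, chr12:57229327-57234935), had 295 UMIs or 53.6 CPM in MDAMB468 and 1037 UMIs or 63.9 CPM in CAL51. Its ratio was 0.839 (0.735 to 0.956). MTHFD2, the mitochondrial folate dehydrogenase and cyclohydrolase (ENSG00000065911, chr2:74198562-74217565), had 995 UMIs or 181 CPM in MDAMB468 and 3209 UMIs or 198 CPM in CAL51, a ratio of 0.914 (0.851 to 0.982). The intervals of PSAT1, SHMT2 and MTHFD2 exclude 1, but other scalings of the 2 libraries moved the median of all genes by -0.13 to 0.10 on the log2 scale. The differences of PSAT1, MTHFD2 and DDIT4 were -0.15 to -0.11, close in size to that uncertainty of scale. That of SHMT2 was larger, -0.25, and ran from -0.41 to -0.14 over 10 settings. In the wider list of folate and glycine genes, 0 of 17 with enough UMIs were at least 2-fold higher in MDAMB468 and 4 were higher in CAL51, with a median log2 difference of -0.60. The 4 of 17 are close to the 22.4% of all genes that were higher in CAL51. Among them were TYMS (2.21-fold), which makes thymidylate, the cytosolic enzyme SHMT1 (2.11-fold) and GLDC, of the glycine cleavage system (1 against 57 UMIs). TYMS is also a gene of S phase, and 6 of 20 S phase genes were at least 2-fold higher in CAL51, none in MDAMB468. The part of cell cycle stage in these values was not tested.

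ASNS, which makes asparagine (ENSG00000070669, chr7:97852118-97872542), was hardly detected. It had 15 UMIs or 2.73 CPM in MDAMB468 (1.53 to 4.50) and 27 UMIs or 1.66 CPM in CAL51 (1.10 to 2.42). The ratio of 1.64 had an interval of 0.810 to 3.19, so no difference was detectable at this count. Whether ASNS reads were missed by the annotation or the read assignment behind the counts was not tested. Only 4 of 208 and 11 of 1069 barcodes at 5000 UMIs had an ASNS UMI.

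ATF4 (ENSG00000128272, chr22:39519695-39522685) had 3493 UMIs or 635 CPM in MDAMB468 (614 to 656) and 4237 UMIs or 261 CPM in CAL51 (253 to 269). The mRNA was 2.43-fold higher in MDAMB468 (2.32 to 2.54), and 93.3% of MDAMB468 barcodes and 68.1% of CAL51 barcodes had a UMI at 5000 UMIs. ATF4 protein, which is set mainly by translation, was not measured.

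The 3 stress genes known to lie downstream of ATF4 went different ways. TRIB3, a pseudokinase that restrains ATF4 and AKT signalling (ENSG00000101255, chr20:362835-397559), had 171 UMIs or 31.1 CPM in MDAMB468 (26.6 to 36.1) and 109 UMIs or 6.72 CPM in CAL51 (5.52 to 8.10). It was 4.63-fold higher in MDAMB468 (3.62 to 5.94). DDIT3, the pro-apoptotic factor CHOP (ENSG00000175197, chr12:57516588-57521737), was higher in CAL51, with 1001 UMIs or 61.7 CPM (57.9 to 65.6) against 182 UMIs or 33.1 CPM in MDAMB468 (28.4 to 38.3). The difference was 1.87-fold (1.59 to 2.20), and it passed 2-fold when the libraries were scaled by trimmed mean of M values or by median of ratios, under which 4 of 10 genes did. DDIT4, an inhibitor of mTORC1 also known as REDD1 (ENSG00000168209, chr10:72273920-72276036), had 529 UMIs or 96.1 CPM in MDAMB468 (88.1 to 105) and 1688 UMIs or 104 CPM in CAL51 (99.1 to 109), a ratio of 0.924 (0.837 to 1.02).

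The 31 barcodes left out of CAL51 held 135240 UMIs and lay between the lines for PSPH. Their PSPH level was 170 CPM (108 to 255), against 287 in MDAMB468 and 31.7 in CAL51. Their ATF4 level was 547 CPM (430 to 687), an interval that includes the 635 of MDAMB468 and lies above the 261 of CAL51. ASNS and TRIB3 had 0 UMIs there. Keeping these barcodes in CAL51, or leaving the satellites out, changed the sign of none of the 10 differences. Other copies of these genes in the genome had few UMIs, with at most 11 in either line apart from PSPHP1. PSPHP1 had 84 UMIs in MDAMB468 and 0 in CAL51. It lies at chr7:55764797-55773288, between VOPP1 and ZNF713, among the neighbours of PSPH described above. The sources used here do not say how reads that match both PSPH and PSPHP1 were assigned, so the PSPH level is uncertain to that extent.

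Beyond the 10 genes, the ATF4 response was not uniformly higher in either line. Of 21 other response genes with enough UMIs, 6 were at least 2-fold higher in MDAMB468, 7 in CAL51 and 8 in neither, with a median log2 difference of -0.26. Over all genes 18.9% were higher in MDAMB468 and 22.4% in CAL51. NUPR1, a small stress-induced chromatin protein, had 544 UMIs in MDAMB468 and 9 in CAL51, 178-fold higher (93.2 to 392). ATF3, another stress factor of the ATF family, had 261 and 57 UMIs, 13.5-fold higher in MDAMB468 (10.1 to 18.3). CEBPG, a C/EBP partner of ATF4, had 1135 and 802 UMIs, 4.17-fold higher (3.81 to 4.57). In the other direction CTH, which makes cysteine from cystathionine, had 5 UMIs in MDAMB468 and 1237 in CAL51, 83.9-fold higher in CAL51 (35.9 to 259). VLDLR, a lipoprotein receptor, had 27 and 1315 UMIs, 16.5-fold higher in CAL51 (11.3 to 25.2). GDF15, a secreted stress hormone, had 0 and 240 UMIs, at least 27.1-fold higher in CAL51 against a floor of 3 counts.

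The amino acid transporters and tRNA synthetases, whose genes ATF4 is also known to control, were closer. Of 12 transporters, 1 was at least 2-fold higher in MDAMB468, the glycine transporter SLC6A9 (37 against 27 UMIs, 4.04-fold, 2.39 to 6.90). The 2 that were higher in CAL51 were SLC38A2, a carrier of small neutral amino acids (208 against 2613 UMIs, 4.26-fold, 3.70 to 4.93), and SLC43A1 (3 against 62 UMIs, 7.01-fold, 2.29 to 34.9). None of the 20 synthetases was 2-fold apart. Their median log2 difference was 0.18, from -0.80 for NARS1 to 0.91 for SARS1, with GARS1 at 0.87. Genes of the ER stress response lay mostly on the CAL51 side. Of 16, 7 were at least 2-fold higher in CAL51 and 1 in MDAMB468, beside 22.4% and 18.9% of all genes, with a median log2 difference of -0.95. The ER chaperone HSP90B1 was 3.32-fold higher in CAL51, CRELD2 4.73-fold and HERPUD1, which takes part in ER-associated degradation, 2.76-fold (423 against 3446 UMIs), while the sensor ERN1 was 2.53-fold higher in MDAMB468 on 18 and 21 UMIs.

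To see whether the 10 genes varied together from cell to cell, each barcode was thinned at random to 5000 UMIs, shallower and satellite barcodes were left out, and Pearson's r was averaged over 20 thinnings. This kept 208 barcodes of MDAMB468 and 1069 of CAL51. The points of each correlation share 1 library and 1 depth, the values are descriptions of these barcodes, and doublets were not removed. At this depth most of the 10 genes had fewer than 1 UMI per barcode, and in such sparse counts a single weak r is no finding. Shares of barcodes with a UMI at this depth, sums per barcode and classes of barcodes are from the first thinning alone. There the summed UMIs of the 10 genes ran from 0 to 23 in MDAMB468, with a median of 8, and from 0 to 24 in CAL51, with a median of 4.

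In CAL51 the 45 pairs of genes had r from -0.027 to 0.230 with a median of 0.0705, and 42 of the 45 were above 0. An r of at least 0.1 was reached by 13 of 45 pairs. Over all 20759346 pairs of genes with a mean of at least 0.1 UMI, 0.104% reached it, and the median r was -0.0001. In MDAMB468 the pairs ran from -0.036 to 0.151 with a median of 0.0552, and 41 were above 0. There 8 of 45 reached 0.1, beside 0.799% of all 18443701 pairs. ASNS had a mean below 0.1 UMI in MDAMB468 (0.0149) and in CAL51 (0.009), as did TRIB3 in CAL51 (0.0316). Their pairs are among the 45 but not among all pairs. Those that reached 0.1 were ASNS with ATF4 and DDIT3 with TRIB3 in CAL51, and ASNS with SHMT2 and with DDIT4 in MDAMB468. The count in MDAMB468 rests on fewer barcodes and was 2 when the 1% of barcodes with the highest sum was left out, against 9 in CAL51. At 2500 UMIs the count was 2 in each line, and by Spearman's rho it was 7 in CAL51 and 3 in MDAMB468. The share of all pairs was not computed at these other settings. Whether the lines differ in co-variation was not tested.

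The closest pair in CAL51 was PSAT1 with MTHFD2, at 0.230, which was 0.226 with the shared barcodes kept. The value was 0.294 among the 557 barcodes that could be compared at 10000 UMIs, 0.129 at 2500 UMIs, 0.164 without the 1% of barcodes with the highest sum and 0.144 by Spearman's rho. PHGDH had r of 0.171 with ATF4, 0.154 with MTHFD2 and 0.151 with PSAT1. ATF4 also had 0.164 with PSAT1, 0.157 with MTHFD2 and 0.150 with DDIT3, and the last of these was 0.246 at 10000 UMIs and 0.0725 at 2500 UMIs. DDIT3 and TRIB3 had 0.126, which was 0.257 at 10000 UMIs but 0.0792 at 2500 UMIs and 0.0754 without the 1% of barcodes with the highest sum. PSPH was the exception in CAL51. Its r with the sum of the other 9 genes was 0.037, against 0.112 for DDIT4, the next lowest, and 0.283 for MTHFD2, the highest. PSPH had few UMIs in CAL51, a mean of 0.160 per barcode, and the part of this low level in its r was not tested. In MDAMB468, where PSPH had a mean of 1.36, its r with the other 9 was 0.159, and the highest was that of PSAT1, 0.234. The pair PSAT1 and MTHFD2 had 0.139 in MDAMB468, and SHMT2 with ASNS had 0.151 with ASNS in 4 barcodes.

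**Figure D3:**
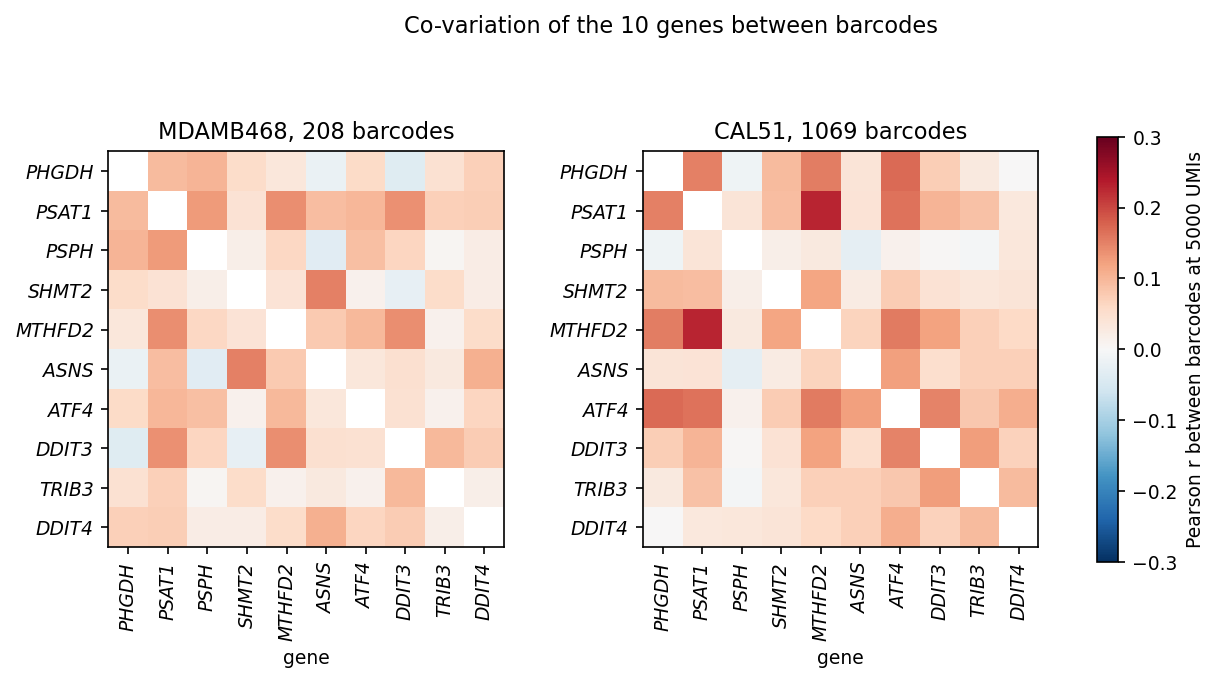
Pearson's r between barcodes for each pair of the 10 genes at 5000 UMIs per barcode, in MDAMB468 (208 barcodes) and CAL51 (1069 barcodes), with the same colour scale in both panels. In CAL51 the block of PHGDH, PSAT1, MTHFD2 and ATF4 holds the highest values, up to 0.230, and the PSPH line is near 0.

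Sorting CAL51 barcodes by their ATF4 UMIs shows the size of this co-variation, without any new test. The 341 barcodes with 0 ATF4 UMIs had a mean of 2.997 UMIs over the other 9 genes (2.82 to 3.19), and the 63 with 4 or more had 6.21 (5.61 to 6.85). The means in between were 3.57, 4.15 and 4.90 for 1, 2 and 3 ATF4 UMIs. From the lowest to the highest class MTHFD2 went from 0.768 to 1.51 UMIs per barcode, PSAT1 from 0.651 to 1.16, PHGDH from 0.578 to 1.30 and DDIT3 from 0.220 to 0.683. PSPH was at 0.135 and 0.111. In MDAMB468, where ATF4 was in nearly all barcodes, the sum of the other 9 was 4.93 in the 14 barcodes with 0 ATF4 UMIs (3.83 to 6.24) and 5.41 in the 92 with 4 or more (4.95 to 5.91), intervals that overlap. Averaged over the thinnings, the r of ATF4 with the sum of the other 9 was 0.158 in MDAMB468 and 0.2815 in CAL51. The MDAMB468 value was 0.107 without the 1% of barcodes with the highest sum.

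**Figure D4:**
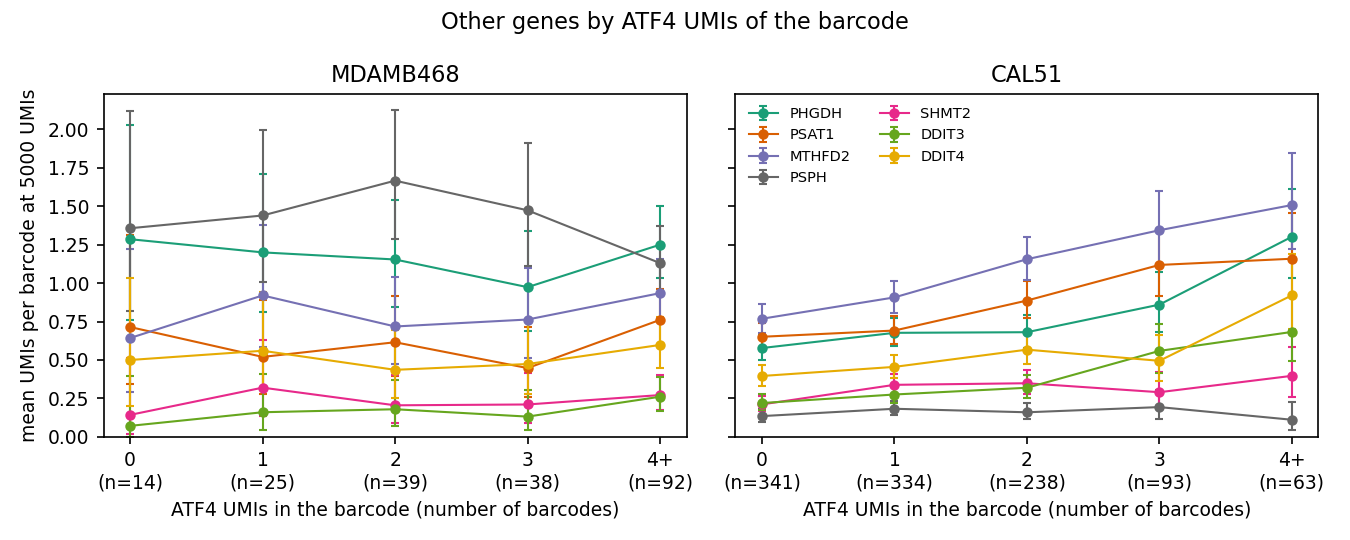
Mean UMIs per barcode of 7 genes at 5000 UMIs in the first thinning, against the number of ATF4 UMIs in the barcode. Bars are exact 95% Poisson intervals that cover counting error only. In CAL51 MTHFD2, PSAT1, PHGDH and DDIT3 are higher in barcodes with more ATF4 UMIs while PSPH stays between 0.111 and 0.194, and in MDAMB468 the bars of each gene overlap.

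The nearest 3 genes of DDIT3 and of DDIT4 in CAL51 lay outside the 10. In CAL51 the 3 genes with the highest r with DDIT3 were those of ER protein folding: HSPA5, the chaperone BiP (0.310), HERPUD1 (0.291) and SDF2L1, a BiP partner (0.258). At 10000 UMIs these were 0.402, 0.384 and 0.360, and at 2500 UMIs 0.208, 0.177 and 0.152. ER genes were not particular to DDIT3. In CAL51 they were also among the nearest 3 of ATF4 (HERPUD1, 0.203), TRIB3 (HSPA5, 0.109) and PSPH (HSP90B1, 0.0739). The value for TRIB3 was 0.0419 without the 1% of barcodes with the highest sum. DDIT4 in CAL51 was nearest to the ferritin heavy chain FTH1 (0.260), the elongation factor EEF1A1 (0.208) and S100A6 (0.199). It was also the most uneven of the 10 genes there, with a variance 2.33 times its mean and up to 17 UMIs in a barcode. In MDAMB468 DDIT4 was nearest to the cytoskeletal genes KRT16 (0.260), KRT19 (0.244) and VIM (0.212). PHGDH, PSAT1 and MTHFD2 in CAL51 each had the glycyl-tRNA synthetase GARS1 (0.159, 0.219 and 0.211) and the translation repressor EIF4EBP1 (0.189, 0.173 and 0.201) among their nearest 3. In MDAMB468 the r of 0.537 between DDIT3 and HERPUD1 rests on few barcodes, being 0.227 without the 3 with the highest sum and 0.192 at 10000 UMIs. That between DDIT3 and the metallothionein MT2A, 0.434, was 0.107 without those 3 barcodes and -0.126 at 10000 UMIs. PSPH in MDAMB468 was nearest to CHCHD2 (0.157), ID2 (0.139) and SEC61G (0.136), of which CHCHD2 and SEC61G lie near it on chromosome 7. At 2500 UMIs these were 0.0536, 0.0163 and 0.106. With the summed UMIs of the 10 genes in MDAMB468, 11 listed neighbours of PSPH had a median r of -0.0144. Among them CHCHD2 was at 0.107 and CCT6A at -0.231.

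Outside the 10 genes, those that followed their summed UMIs most closely in CAL51 were HERPUD1 (0.289), GARS1 (0.281), EIF4EBP1 (0.257), HSPA5 (0.243), the start codon factor EIF1 (0.242), the ferritin light chain FTL (0.211), SLC3A2 (0.210), the synthetases SARS1 (0.198) and MARS1 (0.187), and FTH1 (0.187). They lead 6301 ranked genes, and of 6436 genes with enough UMIs 0.979% had an r of at least 0.1. In MDAMB468 HERPUD1 (0.277) and GARS1 (0.198) were also among the first 10, with MT1E (0.199), MT2A (0.199), SAT1 (0.187), EIF3EP2 (0.182), LGALS3 (0.174), AKR1C2 (0.173), TUBB (0.173) and CASP4 (0.173), and 2.85% of 6065 genes reached 0.1. Part of this order rests on the 3 MDAMB468 barcodes with the highest sum: without them HERPUD1 was at 0.161, MT1E at 0.0878, MT2A at 0.0537 and EIF3EP2 at 0.0946, while GARS1 was at 0.173. At 10000 UMIs CASP4 was at 0.0233, LGALS3 at 0.0592, EIF3EP2 at 0.0802 and MT2A at -0.0417. At 2500 UMIs GARS1 was at 0.076, and LGALS3, AKR1C2, TUBB and CASP4 were also below 0.1. HERPUD1 was at 0.190 and MT2A at 0.194 at that depth. By list, 10 of 20 tRNA synthetases reached 0.1 in CAL51 with a median r of 0.096, and 4 of 20 did in MDAMB468 with a median of 0.033. The CAL51 count was 5 at 2500 UMIs and 11 at 10000 UMIs. In CAL51 5 of 15 ER stress genes, 3 of 9 other ATF4 response genes, 2 of 4 transporters and 0 of 13 folate and glycine genes reached 0.1. In MDAMB468 these counts were 4 of 14, 1 of 12, 1 of 4 and 0 of 11. Without the 1% of barcodes with the highest sum, or at 2500 UMIs, the CAL51 ATF4 response count was 1 of 9. The CAL51 transporter count was then 1 of 4. The CAL51 ER stress count was 3 of 15 at 2500 UMIs and 9 of 15 at 10000 UMIs. The MDAMB468 ER stress count was 1 of 14 at 2500 UMIs and 3 of 14 at 10000 UMIs. Of all genes in CAL51, 0.637% reached 0.1 without the 1%, 0.342% at 2500 UMIs and 2.10% at 10000 UMIs. In CAL51 no S phase or G2 and M phase gene reached 0.1, of 20 each, and the summed UMIs of these lists had r of -0.105 and -0.064 with the sum of the 10 genes. In MDAMB468 2 of 19 S phase and 2 of 20 G2 and M phase genes did, beside 2.85% of all genes, and the sums had 0.0444 and 0.0897. At 10000 UMIs the G2 and M phase count in MDAMB468 was 7 of 20, beside 4.34% of all genes. In CAL51 the r of the sum was 0.150 with the summed ribosomal protein UMIs, -0.085 with the mitochondrial UMIs and 0.030 with the log10 of the total UMIs before thinning. In MDAMB468 these were 0.0005, -0.125 and 0.0659. Their part in the co-variation was not tested.

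**Figure D5:**
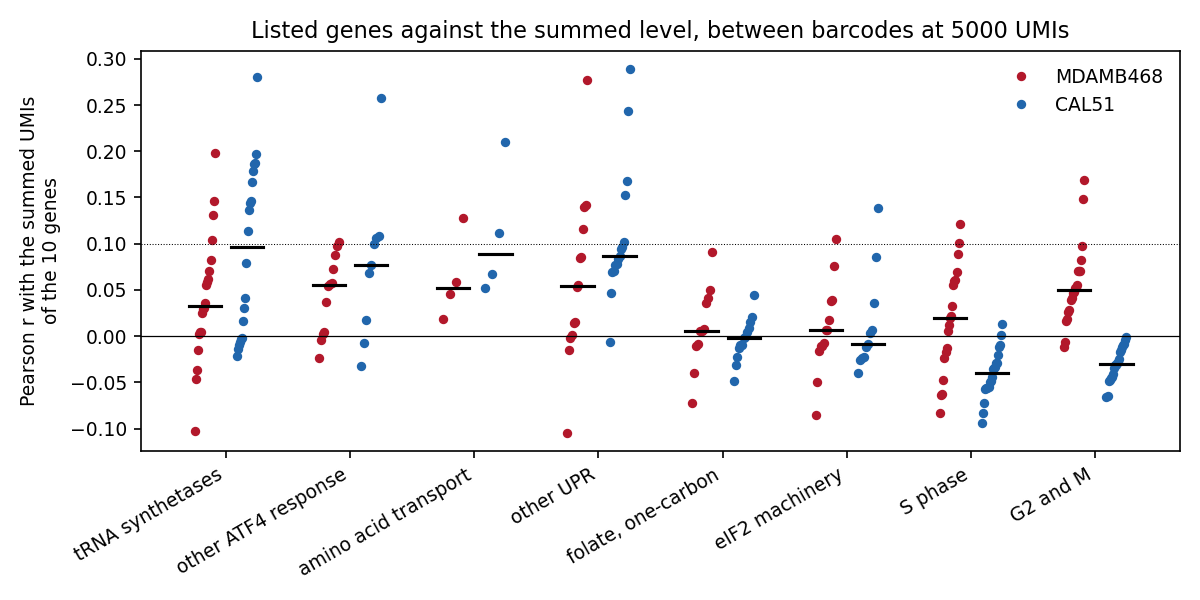
Pearson's r of each listed gene with the summed UMIs of the 10 genes between barcodes at 5000 UMIs, by list and line, with black bars at the medians and a dotted line at 0.1. Of the tRNA synthetases of CAL51, 10 lie above 0.1 and the others run from -0.0211 to 0.0787. The S phase and G2 and M phase genes of CAL51 lie below 0.1.

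The synthetases can be read beside the element shown at the start. In CAL51, of the 7 synthetases whose window holds the letters, 6 had an r of at least 0.1 with the summed level of the 10 genes, with a median of 0.178. Of the 9 whose window lacks them, 3 did, with a median of 0.0166. In MDAMB468 the counts were 3 of 7 and 1 of 9. The other 4 had no window in the table. AARS1 holds the letters and had an r of 0.0787 in CAL51, while SARS1, EPRS1 and WARS1 lack them in this window and had 0.198, 0.144 and 0.114. Among the nearest 3 genes of DDIT3 in CAL51, HSPA5 holds a copy of the ER stress response element (CCAAT and CCACG with any 9 bases between them, searched on both strands). HERPUD1 holds the C/EBP-ATF letters, and SDF2L1 holds neither in its window. The ER stress response element was found for 6 of 16 ER stress genes and for 0 of the 8 genes of the set that have a window, against 0.0916% of all genes. These are descriptions of letters in chosen genes, and no test was made of them.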

How the data were processed

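Drop-seq libraries of 2 cell lines were analysed, 1 per line. The deposited values are whole UMI counts for each gene in each barcode, not normalised. The submitters' processing notes name STARsolo, without a version. Genome build, annotation, barcode selection and the handling of reads with several matches are, in the sources used here, not given. Each deposited barcode name starts with its line, which assigned it. Symbols matched 30730 of 30796 identifiers and GENCODE 29 positions 29416.

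Counts were summed per line and scaled to CPM. Intervals are exact at 95%, and a floor of 3 counts stands for a count of 0. A gene was read as 2-fold apart with at least 20 UMIs over both lines. No p-value was computed. Co-variation used 20 seeded thinnings to 5000 UMIs. Genes are named as the 10 of the set, the 10 nearest to their sum, the 3 nearest to each, and the extremes of each list, with the listed neighbours of PSPH and PHGDH that had at least 20 UMIs; others were named after their values were seen. Genes, lists and tests were chosen with earlier results of these data known. Alternatives were other scalings (edgeR 4.0.16 under R 4.3.3), pseudocounts, depths, barcode sets and correlation measures; those of 5000 to 20000 UMIs, and those for lists and nearest genes, were chosen after seeing the data. Other steps used Python 3.11.15, numpy 2.4.6, scipy 1.17.1 and pandas 2.3.3, and were checked on simulated counts. No doublet caller was run. The values of 1 listed gene are not reported here.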

Additional observations from a re-analysis of the deposited data

Results flagged for a closer look

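The pseudogene PSPHP1, which is outside the 10 genes and lies among the neighbours of PSPH, had 84 UMIs in MDAMB468 and 0 in CAL51. The 31 barcodes left out of CAL51 had a PSPH level of 170 CPM (108 to 255), above the 31.7 CPM of the CAL51 barcodes that were kept.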

How the results depend on the processing

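No paired analysis was possible because there is 1 library per line and the lines share no replicate. All 10 genes kept the sign of their difference in 10 of 10 scalings, pseudocounts and barcode sets, although that of DDIT4 came down to -0.0027 with mitochondrial and ribosomal protein genes left out of the total. At a 1.5-fold limit 6 of 10 genes were apart, against 3. Their median log2 difference of 0.19 was 0.032 with the mean of per-barcode CPM and 0.0111 with a pseudocount of 10 CPM. The 8 pairs of MDAMB468 with r of at least 0.1 became 3 by Spearman's rho, 4 on log2 counts, 2 without the 1% of barcodes with the highest sum, 2 at 2500 UMIs, 13 at 10000 UMIs, 4 with satellites kept and 14 in barcodes of 5000 to 20000 UMIs. The share of all genes with such an r with the sum also moved in MDAMB468. It was 2.85%, and became 1.57% without the 1%, 0.759% at 2500 UMIs, 4.34% at 10000 UMIs and 9.48% in barcodes of 5000 to 20000 UMIs. The share of all pairs was not computed at these settings. The median r of the pairs in MDAMB468, 0.0552, was 0.0332 without the 1% and 0.0351 at 2500 UMIs. In CAL51 the 13 pairs became 7 by Spearman's rho and 2 at 2500 UMIs, and the median r of 0.0705 became 0.0516 by Spearman's rho, 0.0383 at 2500 UMIs, 0.0405 without the 1% and 0.0575 at 10000 UMIs. The r of MT2A with the summed level in MDAMB468 turned from 0.199 to -0.0417 at 10000 UMIs. The r values of single genes under other settings were compared with 1 limit per line, 0.0187 in MDAMB468 and 0.0094 in CAL51. This limit is the standard deviation over thinnings of the median r of the pairs. By it 217 values moved, 82 did not and 1 reversed. The spread between thinnings of each gene's own r was not used. The low UMI counts of ASNS limit what can be said of it, and 1 library per line limits every comparison of the lines.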

Other observations

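The machinery upstream of ATF4 was nearly level between the lines. Of 15 genes for eIF2, its kinases, its exchange factor and related regulators, 1 was at least 2-fold higher in MDAMB468, PPP1R15B, which directs the eIF2 phosphatase (172 against 202 UMIs, 2.51-fold, 2.04 to 3.09). In CAL51 1 was higher, EIF2AK4, the kinase GCN2 that senses uncharged tRNA (195 against 1380 UMIs, 2.40-fold). Over all genes 18.9% were at least 2-fold higher in MDAMB468 and 22.4% in CAL51. The kinase of ER stress, EIF2AK3, had 35 and 75 UMIs, a ratio of MDAMB468 to CAL51 of 1.38 (0.894 to 2.08).

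Immediate-early genes, which many cells raise when handled, were higher in MDAMB468. Of 12, 9 were at least 2-fold higher there and 0 in CAL51, beside 18.9% and 22.4% of all genes, with a median log2 difference of 1.80. MYC was 9.20-fold higher (1345 against 431 UMIs), JUN 8.87-fold (1083 against 360 UMIs) and IER3 6.76-fold, while EGR1 had a ratio of 0.827. Whether their level bears on ATF4, ATF3 or DDIT3 was not tested. Among 12 hypoxia and related stress genes 1 was at least 2-fold higher in MDAMB468 and 4 in CAL51, beside 18.9% and 22.4% of all genes. ADM had 29 and 1167 UMIs, TXNIP 0 and 150, and CA9 39 and 0.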
